A study of Mus musculus with 14 samples.

Results

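Klotho, the vitamin D enzymes and receptor, the calcium carriers of the distal tubule and the receptors for parathyroid hormone and calcium were followed through mouse acute kidney injury. The 10 genes were chosen by symbol, as Kl, Cyp27b1, Cyp24a1, Vdr, Trpv5, Calb1, Slc8a1, S100g, Pth1r and Casr, out of 24411 genes listed. All 10 passed the filter on low counts that left 14300 genes for testing. Bulk RNA sequencing was performed on kidneys of male C57/B6 mice of 8 weeks at day 0 (4 libraries) or 1 and 3 days after ischemia-reperfusion injury (IRI, 5 libraries for each time), in which the blood supply of the kidney is clamped and then released. The labels name no transgene or drug in any group. The day 0 kidneys are marked as controls (Ctrl) in their library names. Whether those mice had a sham operation is not given in the sources used here, nor is the duration of ischemia.

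Klotho is a membrane protein of the distal and proximal tubule that serves as the co-receptor for the phosphate-lowering hormone FGF23. FGF23 and parathyroid hormone set the balance of the renal enzymes that make active vitamin D (Cyp27b1) and break it down (Cyp24a1), and active vitamin D acts through its receptor Vdr. In the distal convoluted and connecting tubule, calcium enters the cell through the channel Trpv5, is carried across it by the calbindins and leaves into the blood through the exchanger Slc8a1 and calcium pumps, while the calcium-sensing receptor Casr of the thick ascending limb slows calcium recovery when blood calcium is high.

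Between 12485579 and 20476979 reads per library fell on genes, and levels are given as CPM, in which each count is divided by the library's reads on genes and by its TMM scaling factor so that libraries of different depth can be compared. Each library name ends in a number. It has 3 digits for replicates 1 and 2 of day 1 and for the first 3 replicates of day 3, and 1 digit for the remaining 9 libraries, all of day 0 included. What this number format marks is not stated, and the comparisons were therefore also made within it. Since no day 0 library has a 3-digit number, format and injury cannot be told apart where 3-digit libraries are set against day 0. The tissue carried the defining transcripts of kidney: the 12 proximal tubule markers summed to 44500 to 48500 CPM at day 0, the 5 thick ascending limb markers to 6210 to 9400, the 8 distal convoluted tubule markers to 2540 to 2700 and the 8 connecting tubule and collecting duct markers to 839 to 1130. The labels do not say whether libraries of a group came from separate mice, so the p-values measure the spread between these libraries.

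Across the 10 genes, the calcium-binding protein Calb1, the calcium exchanger, klotho and both G protein-coupled receptors were lower at both days after injury. The other calcium-binding protein, S100g, was called lower at day 3 only. The vitamin D enzymes were higher at day 3 and the calcium entry channel was higher at day 1. Of these rises, the call of the channel Trpv5 was lost in 8 and that of Cyp24a1 in 5 of the 14 fits that left out 1 library. In those fits the log2 fold change stayed at 0.64 to 0.8 for Trpv5 and at 1.27 to 1.45 for Cyp24a1. With an adjusted p-value under 0.05 in edgeR's quasi-likelihood test as the call, 6 genes changed between day 0 and day 1 (Trpv5 higher, and Kl, Calb1, Slc8a1, Pth1r and Casr lower), beside 42.1% of all genes tested. At day 3, 8 genes differed from day 0 (Cyp27b1 and Cyp24a1 higher, and Kl, Calb1, Slc8a1, S100g, Pth1r and Casr lower), beside 33.3% of all genes. Between day 1 and day 3, 3 genes changed (Casr higher, and Calb1 and S100g lower), beside 15.9% of all genes. That share moved with the libraries: it was 8.9% to 10.3% without replicate 3, 4 or 5 of day 1 or replicate 1 or 3 of day 3, up to 23.5% without replicate 2 of day 1, 6.02% in a fit of these 2 days alone, 10.2% without the filter and 36% with the 1-digit libraries alone. The median log2 fold change of the 10 genes was -0.67 at day 1 and -0.96 at day 3 against day 0, beside 0.01 and 0.05 over all genes tested. The libraries of day 0 and day 1 did not overlap for 7 of the 10 genes, beside 42.0% of all genes, and those of day 0 and day 3 for 7, beside 33.4%. Both comparisons with day 0 use the same 4 control libraries. Of all calls at day 3 against day 0, 58.5% were higher with TMM scaling and 73.8% with total counts, and between day 1 and day 3 53.6% and 77.9%. In bulk tissue fewer cells of a type and less RNA per cell cannot be told apart.

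**Figure D1:**
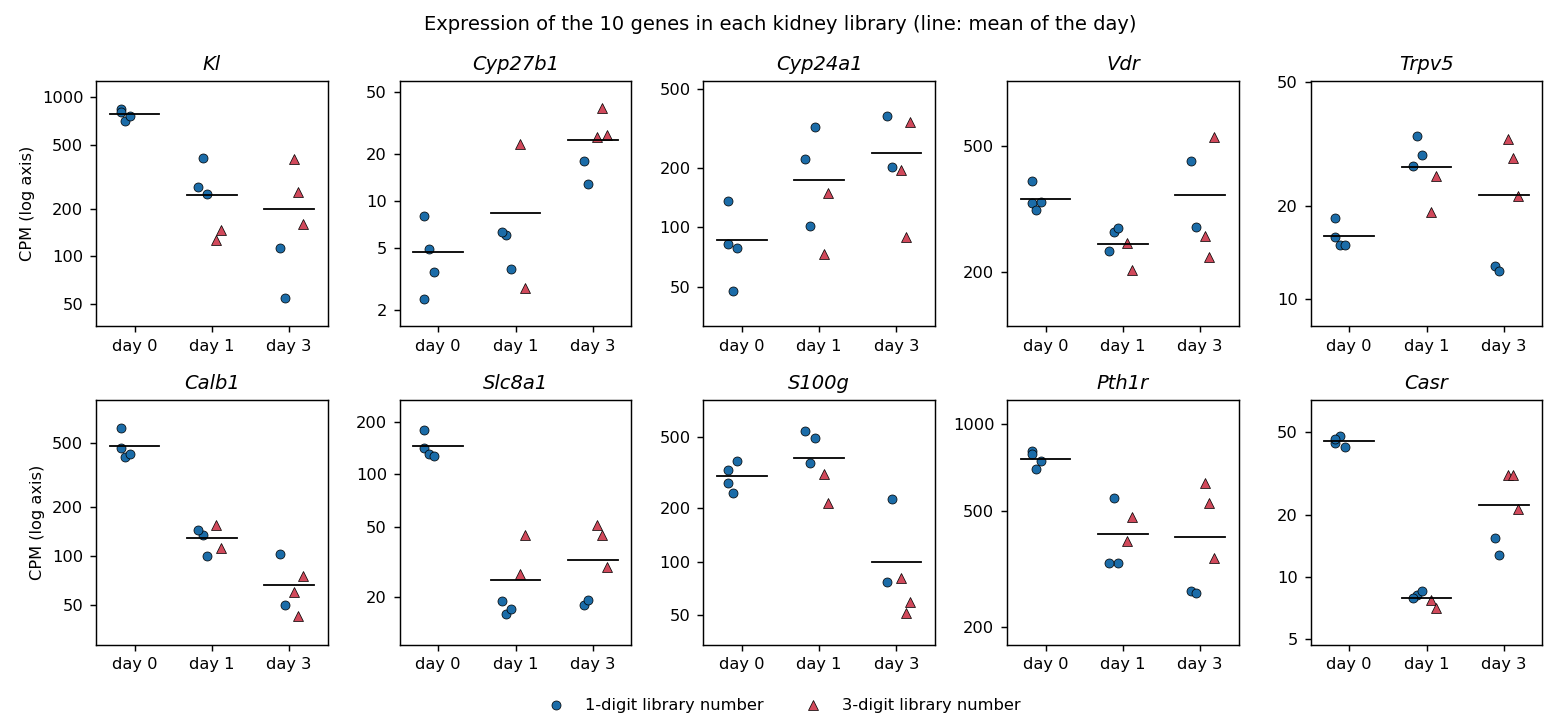
CPM of the 10 genes in each of the 14 libraries (log axis), grouped by day 0, day 1 and day 3, with circles for libraries with 1-digit numbers, triangles for those with 3-digit numbers and lines for the day means. Kl, Calb1, Slc8a1, Pth1r and Casr sit below all day 0 libraries at both later days, and Cyp27b1 sits above all of them at day 3.

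Per kilobase of annotated exon, S100g was the most abundant at day 0 with a mean of 631 CPM per kb, followed by Pth1r at 260, Calb1 at 98.2, Kl at 84, Vdr at 60.2, Cyp24a1 at 24.1, Casr at 9.58, Slc8a1 at 7.66, Trpv5 at 4.93 and Cyp27b1 at 1.82. The day 0 ranges of Calb1 (83.6 to 127 CPM per kb) and Kl (76.2 to 90.7) overlapped, as did those of Casr (8.97 to 10.1) and Slc8a1 (6.75 to 9.46), but within each of the 4 libraries Calb1 stood above Kl and Casr above Slc8a1. The exchanger Slc8a1 and the channel Trpv5 were thus listed at a lower level per kilobase than the calbindins S100g and Calb1 in every day 0 library. Among the 4 day 0 libraries Casr varied least, with a coefficient of variation of 5.49%, and Cyp27b1 most, with 52.2%.

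The 10 genes lie on separate chromosomes, so none neighbours another. In GRCm38 (mm10) Kl (ENSMUSG00000058488.7) spans chr5:150952607-150993817 on the plus strand with up to 5 exons, Cyp27b1 (ENSMUSG00000006724.12) chr10:127048250-127053006 on the plus strand with up to 9, and Cyp24a1 (ENSMUSG00000038567.5) chr2:170482708-170497145 on the minus strand with 12. Vdr (ENSMUSG00000022479.15) spans chr15:97854425-97910630, Trpv5 (ENSMUSG00000036899.10) chr6:41652173-41680769 and Slc8a1 (ENSMUSG00000054640.15) chr17:81373105-81738377, all on the minus strand. Calb1 (ENSMUSG00000028222.2) spans chr4:15881264-15908064 on the plus strand, and S100g (ENSMUSG00000040808.4) chrX:162961992-162964599, Pth1r (ENSMUSG00000032492.14) chr9:110722085-110747145 and Casr (ENSMUSG00000051980.13) chr16:36493696-36562141 lie on the minus strand. Counting used the strand of the read, so the genes on the opposite strand that overlap Cyp24a1 (Pfdn4), S100g (Ctps2), Pth1r (Myl3) and Slc8a1 (AC122399.1 and Gm11096) do not share their counts. Casr overlaps Gm25902, a small RNA gene on its own strand, which counting by strand does not separate and for which no counts were used here.

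Promoter sequences, from 250 bases before to 50 bases after the start of transcription, were taken from RefSeq (GRCm38) and matched 8 of the 10 genes, with none for Cyp24a1 and Calb1. They are printed for klotho, for the vitamin D activating enzyme, for the calcium channel and for the calbindin of S100g, the first and last of which fell while the others rose on at least 1 day. Capitals mark matches on either strand to 4 short motifs: the GC box GGGCGG, the CCAAT box, the TATA box as TATAAA, and AGGTCA, the half-site that receptors of the vitamin D receptor family bind. The windows are chr5:150952357-150952656 (plus strand) for Kl, chr10:127047996-127048295 (plus strand) for Cyp27b1, chr6:41680674-41680973 (minus strand) for Trpv5 and chrX:162964550-162964849 (minus strand) for S100g.
Kl: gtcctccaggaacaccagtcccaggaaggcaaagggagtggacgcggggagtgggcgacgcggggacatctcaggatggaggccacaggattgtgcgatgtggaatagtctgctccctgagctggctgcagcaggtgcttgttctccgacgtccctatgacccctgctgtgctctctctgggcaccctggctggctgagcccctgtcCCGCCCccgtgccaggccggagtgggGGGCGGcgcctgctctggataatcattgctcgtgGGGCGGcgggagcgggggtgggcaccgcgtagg
Cyp27b1: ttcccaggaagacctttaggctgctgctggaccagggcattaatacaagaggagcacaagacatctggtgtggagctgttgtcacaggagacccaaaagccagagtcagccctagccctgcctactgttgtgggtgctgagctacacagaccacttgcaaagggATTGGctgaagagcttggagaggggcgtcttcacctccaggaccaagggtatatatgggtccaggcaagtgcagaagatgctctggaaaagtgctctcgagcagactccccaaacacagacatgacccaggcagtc
Trpv5: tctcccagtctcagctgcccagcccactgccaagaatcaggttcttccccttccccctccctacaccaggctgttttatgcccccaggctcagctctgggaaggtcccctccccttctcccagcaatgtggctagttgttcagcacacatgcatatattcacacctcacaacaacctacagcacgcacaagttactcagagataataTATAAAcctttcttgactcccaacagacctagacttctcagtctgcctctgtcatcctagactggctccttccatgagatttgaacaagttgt
S100g: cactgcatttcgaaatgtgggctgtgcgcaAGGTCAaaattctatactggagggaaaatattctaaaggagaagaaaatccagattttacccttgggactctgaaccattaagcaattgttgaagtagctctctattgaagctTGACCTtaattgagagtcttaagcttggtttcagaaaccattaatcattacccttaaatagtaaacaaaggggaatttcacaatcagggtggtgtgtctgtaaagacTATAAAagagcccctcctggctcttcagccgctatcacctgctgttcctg

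The klotho promoter was the richest in G and C of these 4, at 67.3% against 54.3% for Cyp27b1, 50.7% for Trpv5 and 41% for S100g, and it held GGGCGG at 3 positions, a motif present in 35.7% of 32851 mouse promoters of this length. Trpv5 held a TATAAA ending 38 bases before its start site, a motif found in 13.6% of promoters. S100g held TATAAA at its annotated start site, and AGGTCA once on each strand, a half-site present in 16.3% of promoters. Cyp27b1 held a CCAAT on the minus strand ending 82 bases before the start site, as 37.4% of promoters do. The DR3 element, a pair of such half-sites in the same direction with a 3-base gap, was in none of the 10 windows of the 8 genes and in 0.256% of all promoters. These matches describe the letters of a 300-base window and say nothing of binding.

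Klotho was lower in every injured kidney, and at day 3 the injured kidneys differed among themselves. Kl was at 846, 711, 764 and 815 CPM in replicates 1 to 4 of day 0, at 126, 147, 417, 248 and 275 CPM in replicates 1 to 5 of day 1, and at 159, 411, 255, 113 and 54.7 CPM in replicates 1 to 5 of day 3. Every injured kidney lay below every day 0 kidney, the closest being the third replicate of day 1. The mean went from 784 ± 59.1 CPM (SD, n = 4) at day 0 to 243 ± 117 (n = 5) at day 1 and 199 ± 140 (n = 5) at day 3. Kl was 3.23-fold lower at day 1 (log2 fold change -1.69 ± 0.46, SE, adjusted p = 0.00994) and 3.95-fold lower at day 3 (-1.98 ± 0.47, adjusted p = 0.0058) in edgeR's quasi-likelihood test. The highest library of day 3 held 7.52 times the CPM of the lowest, against 3.31 times at day 1 and 1.19 times at day 0, but the injured days hold both number formats, between which Kl did not overlap, and day 0 holds only 1. Between day 1 and day 3 all libraries together gave no call (-0.29, adjusted p = 0.684), and the libraries of each number format gave values of opposite sign. Among 1-digit libraries Kl fell further from day 1 to day 3 (-1.90 ± 0.38, adjusted p = 0.00292), with 248 to 417 CPM in 3 libraries against 54.7 and 113 in 2, at -2.52 without replicate 4 of day 3 and -1.49 without replicate 5. The 3-digit libraries had 126 and 147 CPM at day 1 and 159 to 411 at day 3, and a fit of day 0 with these libraries alone gave a difference of 1.01 between these days (adjusted p = 0.0606). Against day 0 the 3-digit libraries alone were lower at both days (-2.52, adjusted p = 0.000446, and -1.51, adjusted p = 0.00294).

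The vitamin D activating enzyme was scarce at day 0 and higher at day 3. Cyp27b1, the 1-alpha-hydroxylase that makes active vitamin D, was at 8, 4.88, 3.47 and 2.36 CPM at day 0, at 23.1, 2.77, 6, 3.66 and 6.27 CPM at day 1, and at 26.3, 25.8, 39.1, 18.1 and 12.9 CPM at day 3. At day 1 only the first replicate stood above day 0, and at day 3 every library did. Means were 4.68 ± 2.44 (n = 4), 8.35 ± 8.36 (n = 5) and 24.4 ± 9.91 CPM (n = 5), from 39 to 790 reads per library. The rise to day 3 was 5.22-fold (log2 fold change 2.38 ± 0.59, adjusted p = 0.00775), and within the 1-digit libraries it was 1.72 ± 0.59 (adjusted p = 0.0247), a call lost without replicate 3 or 4 of day 0 or replicate 4 or 5 of day 3 (adjusted p from 0.052 to 0.129). The difference at day 1 was 0.84 ± 0.57 (adjusted p = 0.246). Macrophages can also make Cyp27b1. The 10 markers of macrophages and other leukocytes summed to 138 to 228 CPM at day 0, 94.6 to 155 at day 1 and 151 to 482 at day 3, with 5 higher and 1 lower at day 3. At day 3 the sum was 296 to 482 CPM in the 3-digit and 151 to 160 in the 1-digit libraries. Against day 0 those 1-digit libraries had 4 markers higher and 2 lower, with a median log2 fold change of 0.01. The part of these cells was not tested. Between day 1 and day 3 the difference of Cyp27b1 was 1.55 ± 0.53 and did not pass (adjusted p = 0.0583), but without replicate 1 of day 1 it was 2.39 (adjusted p = 0.00449) and without replicate 5 of day 3 it was 1.68 (adjusted p = 0.04). It also passed in 5 other fits, from 1.39 to 1.86: with total counts (adjusted p = 0.0483), DESeq2 (0.0173), the replicate number as a block (0.0177), a term for the number format (0.0437) and the 1-digit libraries alone (0.0175). Compared within the fit of all 14 libraries, the 1-digit libraries did not pass (1.55 ± 0.64, adjusted p = 0.0786).

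Cyp24a1, the 24-hydroxylase that inactivates vitamin D and is itself a classic target of Vdr, did not go down as its counterpart went up. It was at 82.3, 47.4, 78.3 and 136 CPM at day 0, at 72.8, 148, 101, 320 and 222 CPM at day 1, and at 339, 195, 89.3, 365 and 202 CPM at day 3. Replicates 1 and 3 of day 1 and replicate 3 of day 3 lay within the day 0 range, and the other 7 injured kidneys lay above it. The mean rose from 85.9 ± 36.6 CPM at day 0 to 238 ± 114 at day 3, a 2.77-fold rise (log2 fold change 1.47 ± 0.47, adjusted p = 0.0267). That call rests on single libraries: without replicate 1, 2 or 3 of day 0 or replicate 1 or 4 of day 3 the adjusted p rose to between 0.0609 and 0.0808, and with the 3-digit libraries alone it was 0.056. At day 1 the mean of 173 ± 99.9 CPM did not pass in all libraries (1.01 ± 0.46, adjusted p = 0.0904) and passed among the 1-digit libraries (1.32 ± 0.48, adjusted p = 0.029). There the call was lost without any 1 of replicates 1, 2 and 3 of day 0 or replicates 4 and 5 of day 1 (adjusted p from 0.0596 to 0.159). In CPM, Cyp27b1 amounted to 1.74% to 10.3% of Cyp24a1 at day 0, 1.14% to 31.7% at day 1 and 4.95% to 43.8% at day 3, ranges that overlap.

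Vdr, the nuclear receptor of active vitamin D, passed the test at neither day over all libraries. It was at 329, 313, 332 and 387 CPM at day 0, at 246, 202, 266, 274 and 233 CPM at day 1, and at 534, 260, 223, 447 and 277 CPM at day 3. All 5 day 1 libraries lay below all 4 of day 0, while day 3 spread to both sides. The log2 fold change was -0.48 ± 0.22 at day 1 (adjusted p = 0.0974, but 0.0123 at -0.47 in a fit of day 0 and day 1 alone) and 0.03 ± 0.23 at day 3 (adjusted p = 0.921).

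**Figure D2:**
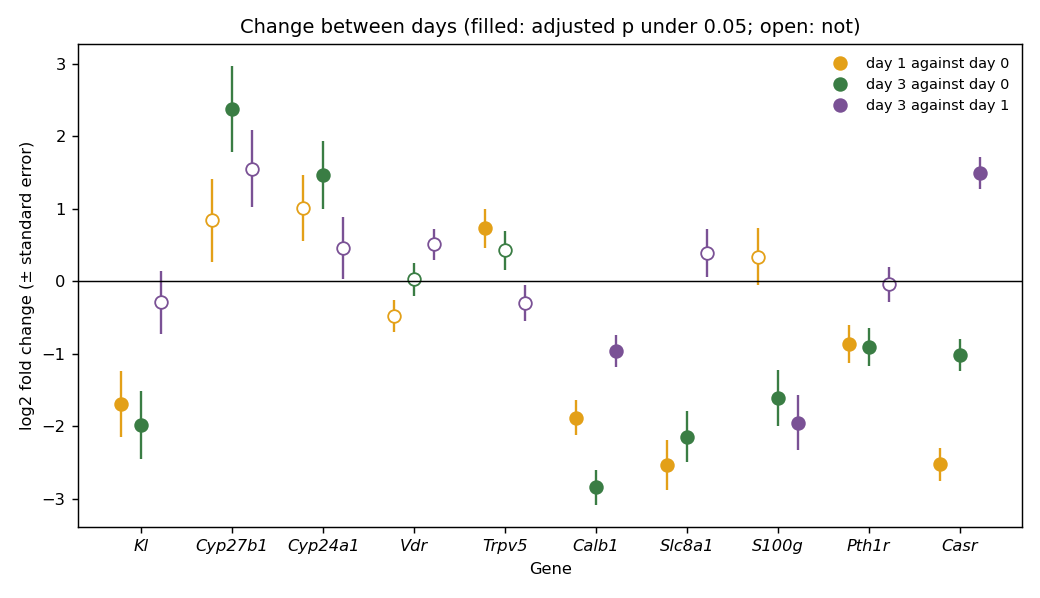
Log2 fold change (vertical axis) of each gene at day 1 and day 3 against day 0 and at day 3 against day 1 (edgeR, vertical lines are ± the standard error), with filled points for an adjusted p-value under 0.05. At day 3 against day 0, Calb1 lies lowest at -2.84 and Cyp27b1 highest at 2.38.

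Calcium transport did not move as a unit: the entry channel was higher at day 1 while the carrier Calb1 and the exit exchanger Slc8a1 were lower at both days. Trpv5, the apical calcium channel, was at 15.9, 14.9, 14.9 and 18.3 CPM at day 0, at 19, 24.9, 33.5, 29.1 and 26.8 CPM at day 1, and at 21.5, 32.7, 28.5, 12.8 and 12.3 CPM at day 3. Every day 1 library lay above day 0, whereas at day 3 the 3-digit libraries lay above it and the 1-digit libraries below it. Trpv5 rose 1.66-fold at day 1 (log2 fold change 0.73 ± 0.27, adjusted p = 0.0416). That call was lost without any 1 of the 4 day 0 libraries, of replicates 3, 4 and 5 of day 1 or of replicate 1 of day 3. In these 8 fits the log2 fold change stayed at 0.64 to 0.8 (adjusted p from 0.0517 to 0.0941). The call was also lost with total counts (0.0561), without the filter (0.0568), with a term for the number format (0.0608) and with the 3-digit libraries alone (0.46, adjusted p = 0.0724). Within the 1-digit libraries the rise at day 1 was 0.90 ± 0.16 (adjusted p = 0.000366), and day 3 was then lower than day 1 (-1.24 ± 0.20, adjusted p = 0.00084). The difference between day 3 and day 0 did not pass, either over all libraries (0.43 ± 0.27, adjusted p = 0.228) or over those with 1 digit (-0.35 ± 0.19, adjusted p = 0.132). With the 3-digit libraries alone Trpv5 was called higher at day 3 (0.78, adjusted p = 0.00625).

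Calb1, the calbindin-D28k that shuttles calcium through distal tubule cells, fell stepwise. It was at 460, 405, 426 and 614 CPM at day 0, at 155, 112, 135, 100 and 144 CPM at day 1, and at 75.5, 60, 42.6, 103 and 49.8 CPM at day 3. All day 0 libraries lay above all injured ones, and only replicate 4 of day 3 reached into the day 1 range. From a mean of 476 ± 94.7 CPM it was 3.69-fold lower at day 1 (log2 fold change -1.88 ± 0.24, adjusted p = 7.05e-05) and 7.18-fold lower at day 3 (-2.84 ± 0.24, adjusted p = 6.53e-06). It fell again between day 1 and day 3 (-0.96 ± 0.22, adjusted p = 0.0129), a call that was lost within the 1-digit libraries (-0.72 ± 0.32, adjusted p = 0.0984, and -0.73, adjusted p = 0.0791, when fitted alone). There it was -1.34 without replicate 4 of day 3 (adjusted p = 0.0218) and -0.30 without replicate 5 (adjusted p = 0.537). The difference by number format passed at neither day (0.08 ± 0.31, adjusted p = 0.863, and -0.37 ± 0.31, adjusted p = 0.406).

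Slc8a1, the sodium-calcium exchanger NCX1 that extrudes calcium at the basolateral side, was at 141, 131, 127 and 178 CPM at day 0, at 27, 45.2, 16.1, 17.1 and 19 CPM at day 1, and at 29.8, 51.5, 45, 18.1 and 19.3 CPM at day 3. All 10 injured kidneys lay below day 0, and within each day the 3-digit libraries were the higher ones. It was 5.78-fold lower at day 1 (log2 fold change -2.53 ± 0.35, adjusted p = 0.000151) and 4.4-fold lower at day 3 (-2.14 ± 0.35, adjusted p = 0.000633). Slc8a1 is also made in smooth muscle, whose 6 markers summed to 142 to 170 CPM at day 0, 309 to 578 at day 1 and 289 to 958 at day 3, above day 0 in every injured kidney, with 3 of 6 called higher at both days.

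S100g, calbindin-D9k, fell at day 3 and was not called at day 1. It was at 278, 243, 365 and 327 CPM at day 0, at 309, 212, 359, 497 and 542 CPM at day 1, and at 59.5, 81.3, 51.3, 76.7 and 226 CPM at day 3. Day 1 overlapped day 0 (log2 fold change 0.34 ± 0.39, adjusted p = 0.499), while all day 3 libraries were below day 0, replicate 5 only just. At day 1 the 1-digit libraries had 359 to 542 CPM and the 3-digit ones 212 and 309. Against day 0 the 1-digit libraries of day 1 gave 0.62 ± 0.3 (adjusted p = 0.0921). A fit with the 3-digit libraries alone gave -0.22 (adjusted p = 0.483). S100g was 3.06-fold lower at day 3 (-1.61 ± 0.39, adjusted p = 0.00683) and fell from day 1 to day 3 (-1.95 ± 0.38, adjusted p = 0.00627). With 1 library left out these values ranged from -2.16 to -1.47 and from -2.54 to -1.8.

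The distal transporters were set beside the cells that carry them. As a share of the day 0 mean, the 8 distal convoluted tubule markers (Slc12a3, Pvalb, Trpm6, Sall3, Emx1, Klhl3, Kcnj10 and Egf) summed to 15% to 42.5% at day 1 and 8.44% to 21.4% at day 3, with 5 of 8 called lower at day 1 and 6 of 8 at day 3, and Pvalb was at 0 in a day 3 library. The 8 connecting tubule and collecting duct markers summed to 43.3% to 88.7% at day 1 and 28% to 83.8% at day 3, with 2 and 4 of 8 called lower. On the same scale Calb1 was at 21.1% to 32.5% and then 8.95% to 21.7%, Slc8a1 at 11.1% to 31.3% and then 12.5% to 35.7%, and Trpv5 at 118% to 209% and then 77.1% to 204%. The ranges of Calb1 and of the summed distal convoluted tubule markers overlapped at both days, but that sum is carried by Egf, whose mean went from 1990 to 306 and 85.5 CPM. The median of these 8 markers was -1.23 at day 1 and -1.35 at day 3 on the log2 scale, against -1.88 and -2.84 for Calb1. Trpv5 stood above both marker sums in every injured kidney. Markers of other cells moved as well. The 7 injured tubule markers summed to 119 to 169 CPM at day 0, 1140 to 5760 at day 1 and 1100 to 4770 at day 3 (6 of 7 higher at both days), and the 6 neutrophil markers to 1.33 to 2.07, 49.3 to 206 and 19.6 to 419 (6 of 6 higher at both days). The 6 endothelium markers summed to 228 to 287, 303 to 524 and 157 to 626 CPM (2 and 0 higher) and the 6 urothelium markers to 1.82 to 46.1, 4.84 to 108 and 1.01 to 47.8 CPM (0 higher, with 1 lower at day 3). Against day 0 the 1-digit libraries alone gave other counts: 4 endothelium markers higher and 1 lower at day 1 and 6 of 6 higher at day 3, and at day 3 8 of 11 proximal tubule, 7 of 8 distal convoluted tubule and 7 of 8 connecting tubule and collecting duct markers lower. The part of any of these markers in the changes of the transporters was not tested.

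**Figure D3:**
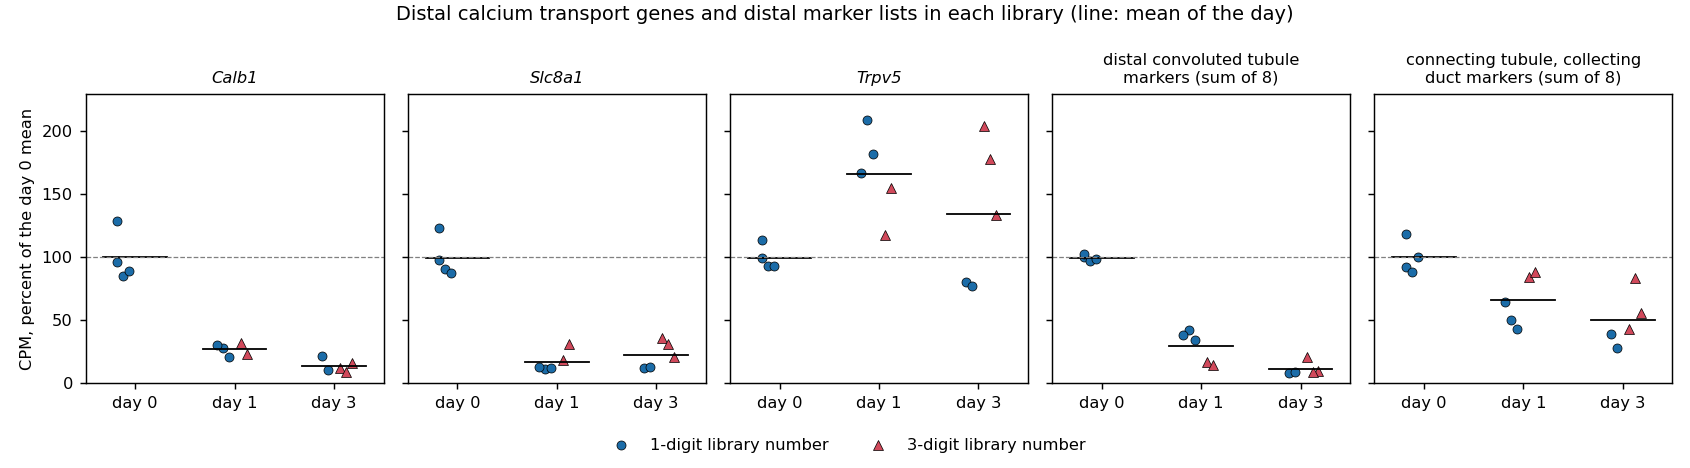
CPM of Calb1, Slc8a1 and Trpv5 and the summed CPM of 8 distal convoluted tubule markers and 8 connecting tubule and collecting duct markers in each library, as a percentage of the day 0 mean (linear axis from 0), with circles for 1-digit and triangles for 3-digit library numbers and lines for the day means. Trpv5 is at 77.1% to 209% in the injured kidneys while Calb1 and Slc8a1 are at 8.95% to 35.7%.

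Both hormone and ion sensors of calcium balance were lower. Pth1r, the receptor through which parathyroid hormone acts on the tubule, was at 809, 697, 745 and 787 CPM at day 0, at 394, 478, 556, 332 and 331 CPM at day 1, and at 346, 627, 534, 267 and 261 CPM at day 3. All injured kidneys lay below day 0. It was 1.82-fold lower at day 1 (log2 fold change -0.86 ± 0.26, adjusted p = 0.0151) and 1.87-fold lower at day 3 (-0.90 ± 0.26, adjusted p = 0.0156), with no call between the later days over all libraries (-0.04, adjusted p = 0.928). Between those days the 1-digit libraries gave -0.62 ± 0.26 (adjusted p = 0.0841), and -0.64 with a call when fitted alone (adjusted p = 0.0461), while the 3-digit libraries with day 0 gave 0.20 (adjusted p = 0.573). The 12 proximal tubule markers, whose cells express Pth1r, summed to 44.4% to 112% of the day 0 mean at day 1 and 22% to 44.1% at day 3, against 43.6% to 73.2% and 34.4% to 82.6% for Pth1r. The sum is carried by Kap, whose mean went from 29700 CPM at day 0 to 26000 and 5640. Of these 12 markers 11 were tested, 2 fell at day 1 and 4 at day 3, with a median log2 fold change of -0.46 and -0.91 against -0.86 and -0.90 for Pth1r, and their part was not tested.

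Casr fell into a narrow range at day 1 and was higher again at day 3. It was at 44.1, 47.8, 42.3 and 46.5 CPM at day 0, at 7.76, 7.09, 8.18, 8.57 and 7.88 CPM at day 1, and at 21.2, 31, 31.1, 15.5 and 12.8 CPM at day 3. The 3 days occupied separate ranges, with day 3 in between. Casr was 5.72-fold lower at day 1 (log2 fold change -2.52 ± 0.23, adjusted p = 8.23e-06), 2.02-fold lower at day 3 (-1.01 ± 0.22, adjusted p = 0.00384), and 2.83-fold higher at day 3 than at day 1 (1.50 ± 0.22, adjusted p = 0.00153). It was the only 1 of the 10 genes whose day 1 and day 3 libraries did not overlap, beside 7.61% of all genes. The 5 thick ascending limb markers (Umod, Slc12a1, Cldn10, Kcnj1 and Ptger3) were all lower at both days, with sums of 3150 to 5560 CPM at day 1 and 2140 to 3470 at day 3, a sum carried by Umod. Umod fell from a mean of 3880 to 2320 CPM between these days, whereas the median marker of the 5 was at -2.97 at day 1 and -1.87 at day 3 on the log2 scale against day 0, and at 0.48 at day 3 against day 1, where 0 were called higher and 1 lower in edgeR's quasi-likelihood test. The part of these markers in the course of Casr was not tested.

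Libraries of the same day but of different number format differed in several of these genes. Among the day 1 libraries, 2 of the 10 genes differed by format (Slc8a1 higher and Kl lower in 3-digit libraries), beside 35.0% of all genes. Among the day 3 libraries 6 did (Kl, Trpv5, Slc8a1, Pth1r and Casr higher and S100g lower in 3-digit libraries), beside 18.5% of all genes. Of these, Slc8a1 differed in the same direction at both days, by 1.06 ± 0.24 (adjusted p = 0.00541) at day 1 and 1.17 ± 0.25 (adjusted p = 0.0113) at day 3. Kl turned round, at -1.20 ± 0.37 (adjusted p = 0.0241) at day 1 and 1.72 ± 0.38 (adjusted p = 0.0123) at day 3. With 1 library left out, its day 3 value ranged from 1.26 to 2.33. At day 3 Trpv5 differed by 1.13 ± 0.20 (adjusted p = 0.00544), Casr by 0.97 ± 0.18 (adjusted p = 0.00573), Pth1r by 0.93 ± 0.26 (adjusted p = 0.0301) and S100g by -1.24 ± 0.36 (adjusted p = 0.0319). The format difference itself changed between day 1 and day 3 for 3 of the 10 genes (Kl, Trpv5 and Casr), beside 17.6% of all genes. These counts rest on few libraries: without replicate 5 of day 3, which leaves a lone 1-digit library assumed to vary like the others, edgeR called 0 of the 10 genes at day 3 (6 at an unadjusted p under 0.05, with Calb1 in place of S100g) and 91 of all genes. In that fit S100g fell back from -1.24 to -0.28 (adjusted p = 0.607), while Kl, Trpv5, Slc8a1, Pth1r and Casr were at 0.82 to 1.26. The share of all genes called by format at day 3 was 33.5% without replicate 1 of that day, 8.26% without replicate 2 and 8.06% without replicate 3. Without replicate 2 of day 1 the share of all genes called by format at day 1 was 14%, and the share whose format difference changed was 11.3%, or 8.85% without replicate 1 of day 1. At day 1 the call of Kl was lost without replicate 1, 2 or 3 of that day (adjusted p from 0.0775 to 0.127) and that of Slc8a1 without replicate 2 (0.122). At day 3 the call of Pth1r was also lost without replicate 2, 3 or 4 (from 0.0778 to 0.0915) and that of S100g, whose formats overlapped, also without replicate 3 (0.105). Marker sums moved with the format too. Distal convoluted tubule markers summed to 391 and 439 CPM in the 3-digit and 898 to 1110 in the 1-digit libraries of day 1, and proximal tubule markers to 20700 and 33000 against 41600 to 52200 (7 of 11 lower in 3-digit libraries). At day 3 proximal tubule markers summed to 10300 to 20500 and 11100 to 13100 CPM (2 of 11 higher). Smooth muscle markers summed to 487 and 578 against 309 to 398 CPM at day 1 and to 289 to 347 against 777 to 958 at day 3. Connecting tubule and collecting duct markers summed to 802 and 840 against 410 to 611 CPM at day 1 and to 410 to 793 against 265 to 372 at day 3, higher in every 3-digit library. At day 3, 3 of 5 thick ascending limb markers were higher in 3-digit libraries (median 1.16), and 3 of 8 distal convoluted tubule markers were higher and 1 lower. Injured tubule markers summed to 5490 and 5760 against 1140 to 3120 at day 1 and to 1100 to 2630 against 3570 to 4770 at day 3. Macrophage and other leukocyte markers summed to 140 and 155 against 94.6 to 110 CPM at day 1. At day 3 they summed to 296 to 482 against 151 to 160. Endothelium markers were lower in every 3-digit library, at 303 and 378 against 411 to 524 CPM at day 1. At day 3 they were at 157 to 266 against 364 to 626. The part of these markers in the format differences was not tested.

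**Figure D4:**
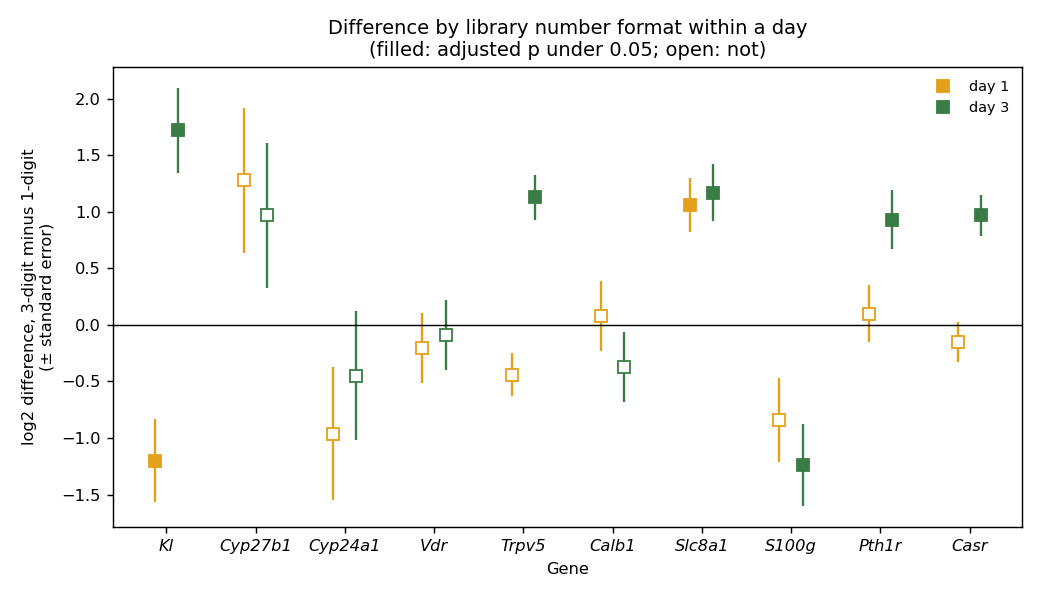
Log2 difference of 3-digit against 1-digit libraries within day 1 and within day 3 for each gene (vertical axis, edgeR, vertical lines are ± the standard error), with filled squares for an adjusted p-value under 0.05. Kl lies at -1.20 at day 1 and at 1.72 at day 3.

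Within the 1-digit libraries, which include all of day 0, 7 genes differed at day 1 (Cyp24a1 and Trpv5 higher, and Kl, Calb1, Slc8a1, Pth1r and Casr lower), beside 58.5% of all genes, and 8 at day 3, beside 53.7%. The day 3 calls were those of all libraries together: Cyp27b1 and Cyp24a1 higher, and Kl, Calb1, Slc8a1, S100g, Pth1r and Casr lower. Kl was 9.36-fold lower in the 1-digit libraries of day 3 (-3.23 ± 0.40, adjusted p = 5.21e-05), at -3.84 without replicate 4 of that day and -2.77 without replicate 5. Among the day 3 calls, Cyp27b1 was lost in the 4 fits given above, S100g without replicate 3 or 4 of day 0 or replicate 4 of day 3 (from 0.0525 to 0.29) and with total counts (-0.86, adjusted p = 0.0621), and Cyp24a1 without replicate 4 of day 3 (0.135). Without that library S100g was at -0.42, and without replicate 5 of day 3 at -1.96. From day 1 to day 3, 4 genes changed in these libraries (Casr higher, and Kl, Trpv5 and S100g lower), beside 32.0% of all genes, of which Casr was lost without replicate 4 of day 3 (0.0546), where the share of all genes was 19.6%.

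Of 40 further genes of these pathways, 32 passed the filter on low counts, and in edgeR's quasi-likelihood test 6 rose and 9 fell at day 1, beside 42.1% of all genes called, and 5 rose and 8 fell at day 3, beside 33.3%. Within the 1-digit libraries 5 rose and 11 fell at day 1, beside 58.5%, and 8 rose and 16 fell at day 3, beside 53.7%. The hormones themselves were at or near 0 in kidney, Pth with 0 reads in every library and Fgf23 with at most 1. Of 8 genes of vitamin D uptake, synthesis and receptor partners, 1 rose and 2 fell at day 1, and 2 rose and 3 fell at day 3. Lrp2 (megalin), which takes up vitamin D bound to its carrier protein, went from 3250 ± 148 CPM to 729 ± 356 and 992 ± 1000 (log2 fold change -2.15, adjusted p = 0.0107, and -1.71, adjusted p = 0.0382). At day 3 it was at 488 to 2570 CPM in the 3-digit and at 206 and 298 in the 1-digit libraries. Cyp2r1, a 25-hydroxylase, had 2 reads over the 4 day 0 libraries, 37 over day 1 and 67 over day 3, ratios of 14.5 (95% interval 3.74 to 124) and 26 (6.92 to 219) that cover counting error only. With at most 1 read in any day 0 library, it passed the filter on low counts only through injured libraries. A rise was thus fixed in advance, and Cyp2r1 is among the rises counted above at both days. Of the day 1 reads, 15 and 18 came from the 3-digit libraries and 1, 1 and 2 from the 1-digit ones, where Cyp2r1 was not called against day 0 (1.39 ± 1.02, adjusted p = 0.259). The retinoid partners of Vdr were not called at either day over all libraries (Rxra -0.20 and -0.22, Rxrb -0.07 and 0.19), while in the 1-digit libraries of day 3 Rxrb was at 64.3 and 66.9 CPM against 43.7 to 51.3 at day 0 (0.47, adjusted p = 0.0139).

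In the FGF23 and klotho list, 7 of 9 genes were tested. At day 1 Fgfr1 rose and Fgfr3 and Bace1 fell, beside 42.1% of all genes called. At day 3 Fgfr4 fell, beside 33.3%. Fgfr3 was at 44.7 ± 4.14 CPM at day 0, 23.1 ± 2.31 at day 1 and 49.9 ± 15.4 at day 3, and rose from day 1 to day 3 (1.11, adjusted p = 0.00303). Adam10 and Adam17, proteases that shed klotho from the cell surface, were not called at either day over all libraries. In the 1-digit libraries of day 1 both were lower than at day 0, Adam10 at 58.4 to 65.3 against 91.7 to 99.3 CPM (-0.63, adjusted p = 0.00587) and Adam17 at 25.7 to 27.4 against 35.6 to 38.8 CPM (-0.51, adjusted p = 0.00408), and in all 4 of the 7 genes fell and 1 rose there, beside 58.5% of all genes called. Behind the parathyroid hormone receptor, the adenylyl cyclase Adcy6 fell at day 1 (-0.79, adjusted p = 0.00233) and rose again by day 3 (0.76, adjusted p = 0.00816), and the stimulatory G protein Gnas was lower at day 3 than at day 0 (-0.46, adjusted p = 0.00646) and than at day 1 (-0.33, adjusted p = 0.0461), the latter not called within the 1-digit libraries (-0.35, adjusted p = 0.0713).

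Among 8 tested of 11 calcium channels, pumps, exchangers and paracellular pores, 1 rose and 3 fell at day 1 (beside 42.1% of all genes called), and 1 rose and 2 fell at day 3 (beside 33.3%). The riser at both days was Trpv6, the close relative of Trpv5, from 1.48 ± 0.479 CPM to 6.64 ± 5.18 and 6.27 ± 2.56 (log2 fold change 2.17, adjusted p = 0.00531, and 2.08, adjusted p = 0.00873). At day 1 it was at 9.59 and 14.4 CPM in the 3-digit and 2.69 to 3.41 in the 1-digit libraries, which passed on their own (1.05, adjusted p = 0.0251). The pump Atp2b2 fell at both days (-2.98, adjusted p = 0.00101, and -2.26, adjusted p = 0.00587) from 3.17 ± 0.961 CPM, and Atp2b1, at 89.1 ± 4.97 CPM, was not called (0.05 ± 0.15 and 0.06 ± 0.15). At day 1 Calb1, Slc8a1, Atp2b2 and Atp2b4 were lower, while Trpv6 and, with the lost calls given above, Trpv5 were higher. S100g and the more abundant pump Atp2b1 were not called there, and Atp2b2 had only 2 to 21 reads per day 1 library. Of 7 phosphate carriers and scaffolds, 3 rose and 1 fell at day 1 (beside 42.1% of all genes), and 2 rose and 1 fell at day 3 (beside 33.3%). Slc20a1 went from 42.2 ± 5.4 CPM to 250 ± 90.2 (2.57, adjusted p = 2.08e-05) and fell again by day 3 (-1.78, adjusted p = 0.00137). Slc34a1, the main phosphate carrier of the proximal tubule, ranged from 402 to 6400 CPM at day 1 and was not called at day 1 or day 3 over all libraries (-0.56, adjusted p = 0.591, and -1.79, adjusted p = 0.102). It divided by number format: the 3-digit libraries of day 1 had 402 and 817 CPM and the 1-digit ones 4180 to 6400, and at day 3 the 3-digit libraries had 982 to 4080 and the 1-digit ones 226 and 278, against 4310 to 5390 at day 0. Within the 1-digit libraries Slc34a1 was thus not called at day 1 (0.06, adjusted p = 0.91) and fell at day 3 (-4.25, adjusted p = 8.43e-05), where all 7 phosphate genes were called, 3 higher and 4 lower, beside 53.7% of all genes.

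The 10 genes varied together to different degrees over the 14 libraries, which share the days. In log2 CPM the correlation of Kl was highest with Pth1r (Pearson r = 0.89), then with Slc8a1 (0.76) and Calb1 (0.75), and it was 0.12 with Trpv5. Casr went with Slc8a1 (0.84), and S100g was opposite to Cyp27b1 (-0.76). Among 13325 genes with a mean of at least 1 CPM, those closest to Kl were Acox2 (0.988), Akr1c14 (0.987) and Tmco3 (0.985), and those closest to Calb1 were Sec14l3 (0.962), C8a (0.945) and Ckb (0.942). For Trpv5 they were Rangap1 (0.926), Id2 (0.902) and Ly6a (0.891), and for Cyp24a1 Tnnt2 (0.899), Vsig10 (0.888) and Bcl2l11 (0.829). These values describe 14 libraries that share 3 days, and by Spearman's ranks all 3 genes were others for Kl and Calb1 and 1 of 3 was another for Cyp24a1.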

How the data were processed

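Total RNA of 14 mouse kidneys was extracted with TRIzol and made into libraries with an Illumina TruSeq kit. Trimmomatic, STAR and mm10 are named in the submitters' processing notes, with no versions. The authors deposited STAR's raw counts per gene, not normalized, without regard to strand and for each strand. The column of the opposite strand held 98.5% to 98.7% of strand-assigned reads and was used. STAR's 4 summary rows, which belong to no gene (29% to 38.3% of reads), were left out.

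Groups and replicate numbers came from the sample titles. Of 24411 genes, 14300 passed the default filter of filterByExpr, grouped by day, and TMM factors were computed on them. The test was edgeR's quasi-likelihood test (edgeR 4.0.16, limma 3.58.1, R 4.3.3) over all 14 libraries, with 1 term per day, or 1 per day and number format for comparisons within a format, and Benjamini-Hochberg adjustment over all genes tested. An adjusted p-value under 0.05 was a call. Standard errors came from the F value. Log2 CPM used a prior count of 2. The scripts were tested on simulated data. The 10 genes, the 5 pathway lists of 40 genes and the 10 marker lists were chosen with earlier results of these data known. All 10 genes are given by name. Of the pathway genes, the 2 that rose and the 2 that fell most among the calls of each comparison of days are named. Trpv6, Atp2b1, Lrp2 and Slc34a1 are named with them. Atp2b4, Fgfr1, Fgfr4, Bace1, Rxra, Rxrb, Adam10, Adam17, Pth and Fgf23 were added after their values were seen. No 2 replicates agreed within sampling noise (chi-square divided by its degrees of freedom, 5.69 to 228). Same-numbered libraries did not deviate together (13 pairs, 3 with a correlation over 0.1), so the numbers were not taken as pairs.

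Alternatives were RLE size factors, total counts, an unfiltered table, a minimum of 10 counts per gene and library, the unstranded column, DESeq2 1.42.0, fits of the 2 days compared alone, a replicate block, a term for the number format, libraries of a single format after injury, prior count 0.5, Spearman's correlation, and leaving out each library. Intervals of read ratios cover counting error only.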

Additional observations from a re-analysis of the deposited data

Results flagged for a closer look

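The difference between 3-digit and 1-digit libraries was not the same at day 3 as at day 1 for 3 of the 10 genes, by a test of the difference itself (edgeR's quasi-likelihood test, beside 17.6% of all genes). For Kl the 3-digit libraries were the lower ones at day 1 and the higher ones at day 3, and its format difference at day 3 exceeded that at day 1 by 2.91 on the log2 scale (adjusted p = 0.00348). For Trpv5 the excess was 1.57 (adjusted p = 0.00291), from -0.44 at day 1, where the libraries did not overlap, to 1.13 at day 3. For Casr it was 1.12 (adjusted p = 0.00924), from -0.15 to 0.97. In the same test 7 of 11 proximal tubule markers (median 2.38) and 3 of 8 distal convoluted tubule markers (median 1.29, with 1 lower) moved up with them and 4 of 6 smooth muscle markers moved down (median -2.88), and their part was not tested. Kl was lower in 2 of 2 3-digit libraries of day 1 than in every 1-digit library, and Kl, Trpv5 and Casr were higher in 3 of 3 3-digit libraries of day 3 than in both 1-digit libraries. Such separation was not particular to them: 5 of the 10 genes did not overlap by format at day 1 and 6 at day 3. The share over all genes is not given. Among 30 groups of a gene and a day, 0 held a library far apart from the others by Dixon's test, where chance gives about 1.5.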

How the results depend on the processing

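Of 690 log2 fold changes refitted under alternatives other than leaving out a library, 655 kept direction and call, 7 lost and 17 gained a call, and 11 changed sign, of which 0 had been called. Of 1260 refitted without a library, 1170 kept direction and call, 41 lost and 16 gained a call, and 33 changed sign, of which 0 had been called. Total counts without TMM gave 5 calls between day 1 and day 3 in place of 3 and moved the median of all genes by 0.15 there, by 0.14 at day 3 against day 0 and by up to 0.22 in the comparisons of or within number formats, and the 1-digit libraries alone gave 6. With total counts the sign changed for Pth1r between day 1 and day 3 (0.13), for the day 1 format difference of Vdr (0.01) and Casr (0.06) and for the change of the format difference in Vdr (-0.07) and Slc8a1 (-0.05), where the share of calls that were higher went from 51.9% to 35%. It also changed for Vdr at day 3 with no filter (-0.01), for Trpv5 at day 3 with 1-digit libraries alone (-0.33), and with 3-digit libraries alone for S100g at day 1 (-0.22) and, between the later days, for Kl (1.01), Trpv5 (0.32) and Pth1r (0.20). The cause was not tested.

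With a library left out, 1 to 3 genes were called by format at day 1 and 0 to 7 at day 3, and the calls of the 1-digit libraries of day 3 from 5 to 8. Log2 differences that changed sign ranged as follows. Against day 0, Cyp27b1 at day 1 ranged from -0.04 to 1.22 (from -0.05 to 0.56 in 1-digit libraries) and Vdr at day 3 from -0.17 to 0.12 (from -0.29 to 0.42). Between the later days, Pth1r ranged from -0.25 to 0.09 and Cyp24a1 in 1-digit libraries from -0.08 to 0.81. The format difference of day 1 ranged from -0.94 to 2.13 for Cyp27b1, from -0.18 to 0.30 for Calb1 and from -0.04 to 0.39 for Pth1r. That of day 3 ranged from -1 to 0.04 for Cyp24a1, from -0.58 to 0.29 for Vdr and from -0.82 to 0.25 for Calb1. The change of the format difference ranged from -1.16 to 1.91 for Cyp27b1, from -0.04 to 1.11 for Cyp24a1, from -0.38 to 0.49 for Vdr, from -0.90 to 0.17 for Calb1, from -0.19 to 0.53 for Slc8a1 and from -0.98 to 0.56 for S100g.

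Same-numbered libraries share only a number (13 pairs, correlations from -0.175 to 0.269, 4 libraries closest to their own number). With the replicate number as a block the counts of calls were 6, 8 and 4, the last with Cyp27b1 between day 1 and day 3 (1.86, adjusted p = 0.0177).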
